A study of Mus musculus with 12 samples.

Results

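Interferons are secreted proteins that switch on a shared set of defence genes, and 34 such genes, 25 induced mainly by type I interferon and 9 induced mainly by interferon gamma, were followed in the lung and liver of virgin and pregnant mice. A gene was taken as measured where a probe set of the array carried its symbol and no other, and where several did, the probe set with the highest mean over the 12 arrays stood for the gene. By this rule 32 of the 34 genes were measured, 23 type I induced and all 9 gamma-induced, among 18193 genes on the arrays. Isg15, which encodes a ubiquitin-like modifier, was covered only by a probe set annotated to a second gene as well, and Ifi44 had no probe set under a single symbol, so neither has a value here.

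The study profiled whole lung and whole liver of female NOD/SCID mice, aged 8 to 10 weeks when experiments began, that were either virgin or at day 16 of pregnancy. RNA of 2 mice was pooled in equal amounts for each array, and each of the 4 groups, lung or liver of virgin or pregnant mice, held 3 arrays, called pools 1, 2 and 3 by their label numbers. NOD/SCID mice carry the scid mutation and lack mature T and B cells, and this holds for all 4 groups alike. The labels do not say whether lung and liver pools with the same number came from the same mice, and the p-values measure only the spread between such pools.

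Type I interferons signal through a cell-surface receptor to transcription factors, Stat2 and Irf9 among them, that act at an element in promoters called the interferon-stimulated response element. Interferon gamma signals through another receptor to the gamma-activated site, and Irf1 made in response then acts on the first element too. The type I induced genes mostly encode proteins that sense or block viruses, while the gamma-induced genes listed here encode GTPases that attack intracellular microbes and parts of the machinery that prepares peptides for antigen presentation. Many genes respond to both kinds of interferon, so the division is one of degree.

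The promoters of 5 members that passed a test of the pregnancy change in either organ are shown, each as the 150 bases immediately before the annotated start, read 5′ to 3′ on the strand of the gene. Sequences and positions are those of RefSeq for mouse build GRCm38.p6, and capitals mark matches on either strand to the core of the interferon-stimulated response element (GAAA, any 2 bases, GAAA) or to the gamma-activated site (TTC, any 3 bases, GAA).
Oas1a, chr5:120907526-120907675, minus strand: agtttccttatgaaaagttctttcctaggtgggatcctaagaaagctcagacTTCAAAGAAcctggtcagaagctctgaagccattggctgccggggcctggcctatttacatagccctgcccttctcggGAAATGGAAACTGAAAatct
Rsad2, chr12:26456453-26456602, minus strand: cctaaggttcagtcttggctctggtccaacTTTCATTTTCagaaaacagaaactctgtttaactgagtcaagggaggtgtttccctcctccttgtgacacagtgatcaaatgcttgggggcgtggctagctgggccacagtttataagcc
Gbp2, chr3:142620513-142620662, plus strand: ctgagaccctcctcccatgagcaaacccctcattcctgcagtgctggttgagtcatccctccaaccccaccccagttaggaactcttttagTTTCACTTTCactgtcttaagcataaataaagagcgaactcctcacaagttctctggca
Gbp3, chr3:142559894-142560043, plus strand: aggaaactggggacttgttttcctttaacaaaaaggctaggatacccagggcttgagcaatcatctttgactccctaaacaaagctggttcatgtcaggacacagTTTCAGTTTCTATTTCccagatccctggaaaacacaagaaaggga
Igtp, chr11:58199406-58199555, plus strand: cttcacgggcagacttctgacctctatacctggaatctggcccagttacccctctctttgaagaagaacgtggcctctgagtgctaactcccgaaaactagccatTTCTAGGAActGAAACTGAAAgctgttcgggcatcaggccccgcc
In Gbp2, Gbp3 and Rsad2 the matches were all to the response element core, in Gbp3 as a pair of overlapping matches between positions -45 and -30 from the start. Oas1a held a like overlapping pair between -20 and -5, and a gamma-activated site between -98 and -90. In Igtp the core, at -34 to -25, lay beside a gamma-activated site at -45 to -37.

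Of the 34 genes, 26 had an entry in the RefSeq promoter table, with 30 windows running from 250 bases before to 50 bases after a start. Mx1, Mx2, Iigp1, Parp14, Zbp1, Usp18, Rtp4 and Oas2 had none. The response element core was found in 14 of the 30 windows (46.7%), against 1131 of 32851 windows in the whole table (3.44%). The gamma-activated site was found in 8 of the 30 (26.7%), against 2726 of all windows (8.3%). The core stood in 10 of 20 windows of type I induced genes and in 4 of 10 windows of gamma-induced genes, and the gamma-activated site in 5 and 3 of them. Of all windows, 149 held both motifs, and in 24 windows matches to the pair overlapped. A match describes these letters only, and the window of Psmb9 overlaps that of Tap1 on the opposite strand.

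Levels are given as log2 expression, so a step of 1 is a doubling of signal, and levels of different probe sets are not set against each other. Arrays of a group correlated at 0.9917 to 0.9961 over all probe sets other than controls. The surfactant and other epithelial genes that mark lung averaged 12.23 to 12.32 on lung arrays and 4.29 to 4.48 on liver arrays, and hepatocyte genes 13.76 to 13.79 in liver against 3.89 to 4.5 in lung. T cell markers averaged 4.86 to 5.11 and B cell markers 4.42 to 5.12, near the median of 4.53 over all probe sets. The RNA spike-in controls averaged 10.78 to 11.28 on 10 arrays but 4.68 and 5.01 on pool 3 of virgin and of pregnant liver, so these 2 liver arrays stand apart, and the changes of genes called in liver are also given within pools 1 and 2 and within pool 3.

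In the lung, 2 oligoadenylate synthetase genes, whose enzymes make the messenger that activates the RNA-degrading enzyme RNase L, rose in pregnancy. These were Oas1a, up 1.76-fold, and Oas2, up 1.74-fold, and they were the only measured members of the 32 to pass at an adjusted p under 0.05 in limma's test across all genes. None fell. Over all genes 108 of 18193 passed (0.594%), 47 of them upwards (0.258%). The members were chosen with earlier results of these data known. So no share of members, neither the larger share of 2 in 32 nor any given below, is a test of the list. In whole tissue, fewer cells of a type and less RNA per cell cannot be told apart, here or in any comparison that follows.

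Oas1a lay at 8.50, 8.46 and 8.79 in virgin lung pools 1 to 3 and at 9.06, 9.40 and 9.73 in pregnant lung pools 1 to 3. Every pregnant pool was above every virgin pool, and the difference was 0.81 (SE 0.16, adjusted p = 0.0349, limma). Oas2, a larger synthetase of the same family, lay at 6.56, 6.48 and 7.07 in virgin lung and at 7.20, 7.56 and 7.75 in pregnant lung. Its groups did not overlap either, with a difference of 0.80 (SE 0.16, adjusted p = 0.0391). Both calls depended on single arrays, Oas1a passing in 6 and Oas2 in 4 of the 12 fits that left out 1 array. Without virgin lung pool 2 the adjusted p was 0.156 for Oas1a and 0.18 for Oas2, and without virgin lung pool 1 it was 0.109 and 0.129. No member passed in lung without virgin lung pool 2, pregnant lung pool 2, pregnant lung pool 3 or virgin liver pool 3. The liver arrays enter the lung test only through the shared estimate of spread, and with both liver pool 3 arrays left out the values were 0.064 and 0.0723. The calls over all genes fell too, from 108 to 26 without virgin lung pool 2, 36 without virgin lung pool 3, 50 without pregnant lung pool 1 or pool 2, and 69 without virgin liver pool 3.

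The other 3 members of the family did not pass. Oasl1, a relative that lacks synthetase activity and restrains translation of Irf7 in mice, lay at 5.10, 4.73 and 5.21 in virgin and 5.27, 5.68 and 5.83 in pregnant lung, with no overlap and a difference of 0.58 (adjusted p = 0.336). Oas3 differed by 0.39 (adjusted p = 0.433) and lay near the median of all probe sets. Oasl2 differed by 0.38 (adjusted p = 0.686). The median difference over the 5 genes was 0.58, and the lowest was 0.38.

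No other type I induced gene passed in lung. Ifit1, which binds viral RNA that lacks the host's cap methylation, lay at 8.62, 8.70 and 8.96 in virgin and at 8.92, 9.34 and 9.21 in pregnant lung (difference 0.40, adjusted p = 0.208). Only the lowest pregnant pool, at 8.92, lay under the highest virgin pool. Ifit2 and Ifit3, of the same family, differed by 0.05 and -0.07. Irf7, the transcription factor that amplifies the type I response, differed by 0.45 (adjusted p = 0.445), and its partners Irf9 and Stat2 by 0.28 and -0.02. Usp18, which removes Isg15 from proteins and dampens receptor signalling, differed by 0.34, and Rtp4 by the same amount. Among direct antiviral effectors, the GTPases Mx1 and Mx2, Rsad2 (viperin), the tetherin gene Bst2 and the RNA-activated kinase gene Eif2ak2 differed by -0.05 to 0.17. Of these, Mx1 lay near the median of all probe sets, at a mean of 4.56 in virgin and 4.64 in pregnant lung. The sensors Zbp1 and Ifih1 differed by -0.15 and 0.09, and Xaf1, Parp14 and Ifi35 by 0.19, 0.22 and 0.02. Across the 23 genes the median difference was 0.19, against -0.008 over all genes, and 19 lay above 0. In 5 of them (21.7%) every pregnant pool was above every virgin pool and in none was the order the reverse, against 8.06% and 10.4% of all genes.

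The gamma-induced genes lay the other way in lung. All 9 had a difference below 0, with a median of -0.42, and 0 passed limma's test at an adjusted p under 0.05. In 5 of the 9 (55.6%) every pregnant pool was below every virgin pool, as in 10.4% of all genes. In 18.4% of all genes the groups were apart in either direction. As the list was chosen with earlier results known, these shares do not test it. The 9 genes varied together from pool to pool (mean pairwise correlation 0.704 after subtraction of group means), so they do not count as separate observations.

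The largest differences were those of 4 of the 5 GTPase genes. Iigp1, which encodes an immunity-related GTPase that disrupts the vacuoles of intracellular parasites in mice, lay at 8.48, 9.21 and 9.30 in virgin lung and at 8.09, 8.21 and 8.39 in pregnant lung (difference -0.76, SE 0.18, adjusted p = 0.0817). Gbp3, a guanylate-binding protein gene, lay at 8.31, 8.74 and 8.84 in virgin and at 7.76, 7.79 and 8.14 in pregnant lung (difference -0.73, SE 0.17, adjusted p = 0.0861). Gbp2, of the same family, lay at 10.29, 10.68 and 10.80 in virgin and at 9.87, 9.83 and 10.02 in pregnant lung (difference -0.68, SE 0.17, adjusted p = 0.103). The groups of all 3 genes were apart, and virgin pool 1 was the lowest virgin pool in each. Igtp, an immunity-related GTPase gene also known as Irgm3, lay at 8.91, 9.74 and 9.93 in virgin and at 8.72, 8.81 and 8.97 in pregnant lung, so virgin pool 1 fell among the pregnant pools (difference -0.69, SE 0.20, adjusted p = 0.195). Irgm1, a regulator of the other immunity-related GTPases, differed by -0.37 (adjusted p = 0.311).

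The calls of these lung genes changed with the arrays and settings used. Without virgin lung pool 1, no member rose and 4 fell, and these were Iigp1 (-1.02, adjusted p = 0.00702), Igtp (-1, adjusted p = 0.00861), Tap1 (-0.63, adjusted p = 0.0184) and Gbp3 (-0.89, adjusted p = 0.046). With all 12 arrays kept, Gbp2, Gbp3 and Iigp1 fell with array weights (adjusted p = 0.0318, 0.0294 and 0.0304), and Gbp3 fell with a variance trend and robust moderation (0.0429). Gbp2 and Gbp3 fell with the pool number as a block (0.0485 and 0.0315). Iigp1 fell with the mean of its probe sets (-0.91, adjusted p = 0.0395) or with suffixed probe sets left out (-1.05, adjusted p = 0.0231). A second probe set of Iigp1 gave -1.05 in a fit of every probe set on its own (adjusted p = 0.0297), an alternative added after the values had been seen, and in that fit the first probe set gave an adjusted p of 0.104 and Oas2 one of 0.0512.

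The antigen-processing genes were Psmb8 and Psmb9, 2 catalytic subunits of the immunoproteasome, and Tap1, a subunit of the transporter that carries peptides into the endoplasmic reticulum. In virgin lung Psmb8 lay at 9.98, 10.10 and 10.06 and in pregnant lung at 9.56, 9.78 and 9.77, with no overlap (difference -0.35, adjusted p = 0.34). Psmb9 also had no overlap (difference -0.41, adjusted p = 0.383). Tap1 differed by -0.42 (adjusted p = 0.256), and its virgin pool 1 lay among the pregnant pools. Irf1, the transcription factor made in response to interferon gamma, differed by -0.06 with an interval of -0.30 to 0.19.

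**Figure D1:**
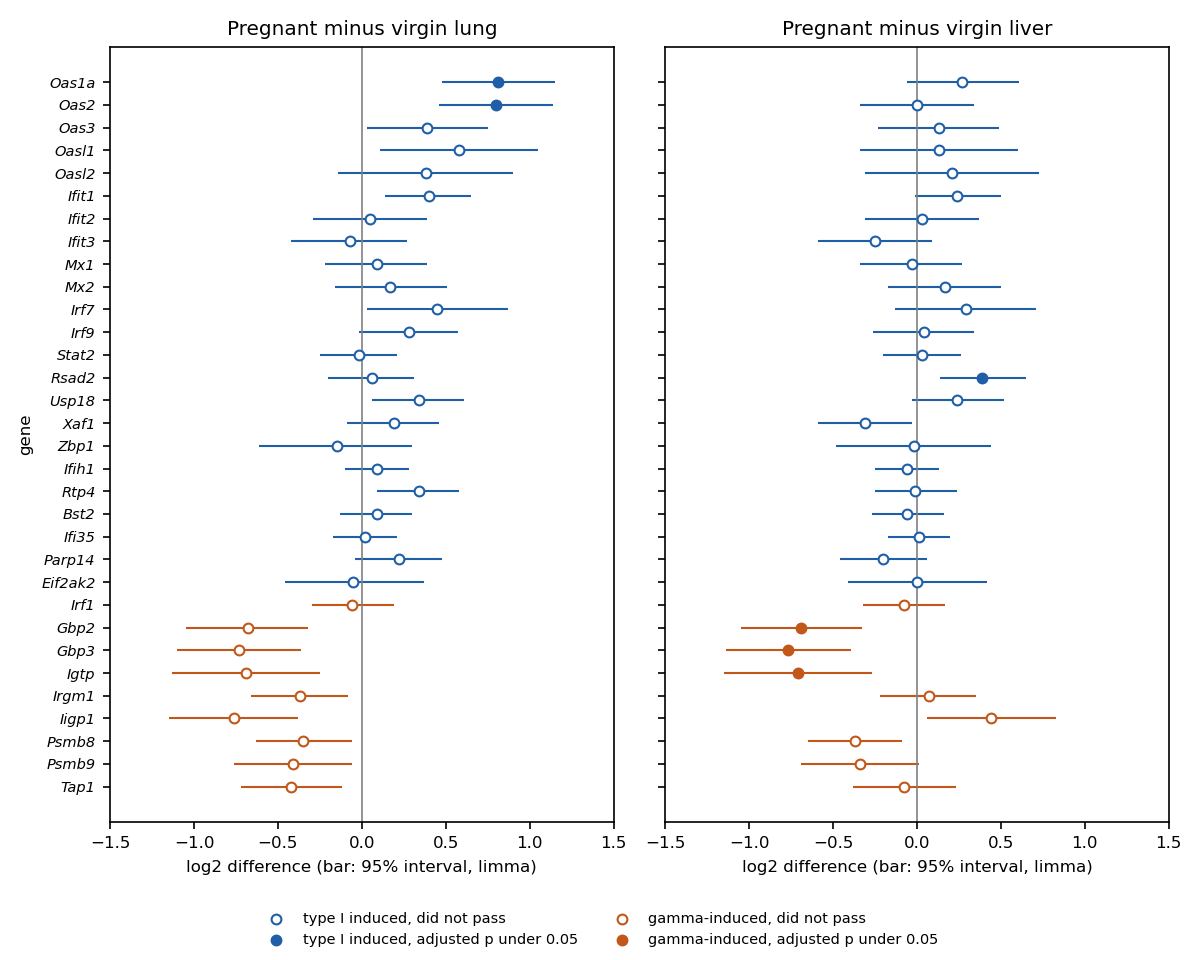
Pregnancy change of the 32 measured genes in lung (left) and liver (right) as the log2 difference of pregnant minus virgin, with 95% intervals from limma, type I induced genes in blue and gamma-induced genes in orange. Filled points passed at an adjusted p under 0.05 (Oas1a and Oas2 in lung, Rsad2, Gbp2, Gbp3 and Igtp in liver), and in lung all 9 gamma-induced genes lie left of 0.

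In the liver, 3 interferon-inducible GTPase genes fell in pregnancy and 1 antiviral gene rose. Gbp3 fell 1.70-fold, Igtp 1.64-fold and Gbp2 1.61-fold, while Rsad2, which encodes viperin, an enzyme that makes a chain-terminating nucleotide, rose 1.31-fold. Over all genes 2482 passed (13.6%), 1096 upwards (6.02%) and 1386 downwards (7.62%), so 4 of 32 members is a share near the background. All 3 that fell are among the 9 gamma-induced genes.

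Gbp3 lay at 7.18, 7.71 and 7.32 in virgin liver pools 1 to 3 and at 6.42, 6.64 and 6.86 in pregnant liver pools 1 to 3 (difference -0.77, SE 0.17, adjusted p = 0.00889, limma). Gbp2 lay at 7.39, 7.97 and 7.90 in virgin and at 7.02, 6.85 and 7.31 in pregnant liver (difference -0.69, SE 0.17, adjusted p = 0.0139). Igtp lay at 10.08, 10.48 and 10.20 in virgin and at 9.40, 9.63 and 9.59 in pregnant liver (difference -0.71, SE 0.20, adjusted p = 0.033). In all 3 genes every pregnant pool was below every virgin pool. Within pools 1 and 2 the differences were -0.92 for Gbp3, -0.74 for Gbp2 and -0.76 for Igtp, and within pool 3 they were -0.46, -0.59 and -0.61. With both pool 3 liver arrays left out, Gbp3 and Gbp2 still passed (adjusted p = 0.0176 and 0.0314) and Igtp did not (0.0965). Gbp3 passed with any single array of the 12 left out, at an adjusted p of at most 0.0442. Gbp2 did not pass without virgin liver pool 2 (0.0641), virgin liver pool 3 (0.0567) or pregnant liver pool 2 (0.0593), and Igtp did not without any liver array other than virgin pool 1, reaching 0.124 without virgin liver pool 2. Without virgin liver pool 2 or pregnant liver pool 2, Gbp3 was the only member called in liver. A second probe set of Gbp2 gave -0.57 (adjusted p = 0.0479 in the fit of every probe set).

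Rsad2 lay at 8.24, 8.33 and 8.49 in virgin liver and at 8.66, 8.84 and 8.75 in pregnant liver (difference 0.39, SE 0.12, adjusted p = 0.0404). All pregnant pools were above all virgin pools, by 0.46 on average within pools 1 and 2 and by 0.26 within pool 3. The call was lost in 7 of the 12 fits that left out 1 array, with an adjusted p of up to 0.135 without virgin liver pool 1, and at 0.0619 with both pool 3 liver arrays left out. Of 2 further probe sets of Rsad2, fitted with every probe set, 1 gave 0.47 (adjusted p = 0.0255) and the other 0.26 (0.353), and the probe set used here gave an adjusted p of 0.0541 in that fit.

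The remaining gamma-induced genes did not pass in liver. Psmb8 lay at 9.43, 9.90 and 9.66 in virgin and at 9.12, 9.21 and 9.53 in pregnant liver (difference -0.37, adjusted p = 0.0759), with the third pregnant pool inside the virgin range. Its difference was -0.50 within pools 1 and 2 and -0.13 within pool 3, and it passed with both pool 3 arrays left out (adjusted p = 0.0489). Psmb9 differed by -0.34 (adjusted p = 0.206), and by 0.05 within pool 3. Iigp1 lay at 11.07, 11.11 and 10.83 in virgin and at 11.58, 11.49 and 11.27 in pregnant liver, every pregnant pool above every virgin pool (difference 0.44, adjusted p = 0.126). Irgm1 and Tap1 differed by 0.07 and -0.08, and Irf1 by -0.08. The median over the 9 genes was -0.34. In 3 of them every pregnant pool was lower and in 1 every pregnant pool was higher, together 44.4%, where the groups of 28% of all genes were apart, 12.7% with pregnant pools higher and 15.3% with them lower.

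Of the 23 type I induced genes, 22 did not pass in liver. Their median difference was 0.03, with 15 genes above 0 and 8 below. The synthetases differed by 0.00 to 0.27. Oas1a lay at 8.01, 8.31 and 8.36 in virgin and at 8.36, 8.63 and 8.51 in pregnant liver (difference 0.27, adjusted p = 0.293), and the groups met at 8.36. Ifit1 differed by 0.24 with no overlap between groups (adjusted p = 0.21). Xaf1, a gene that promotes cell death, differed by -0.31 (adjusted p = 0.14), and it fell with both pool 3 liver arrays left out (-0.45, adjusted p = 0.0337).

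**Figure D2:**
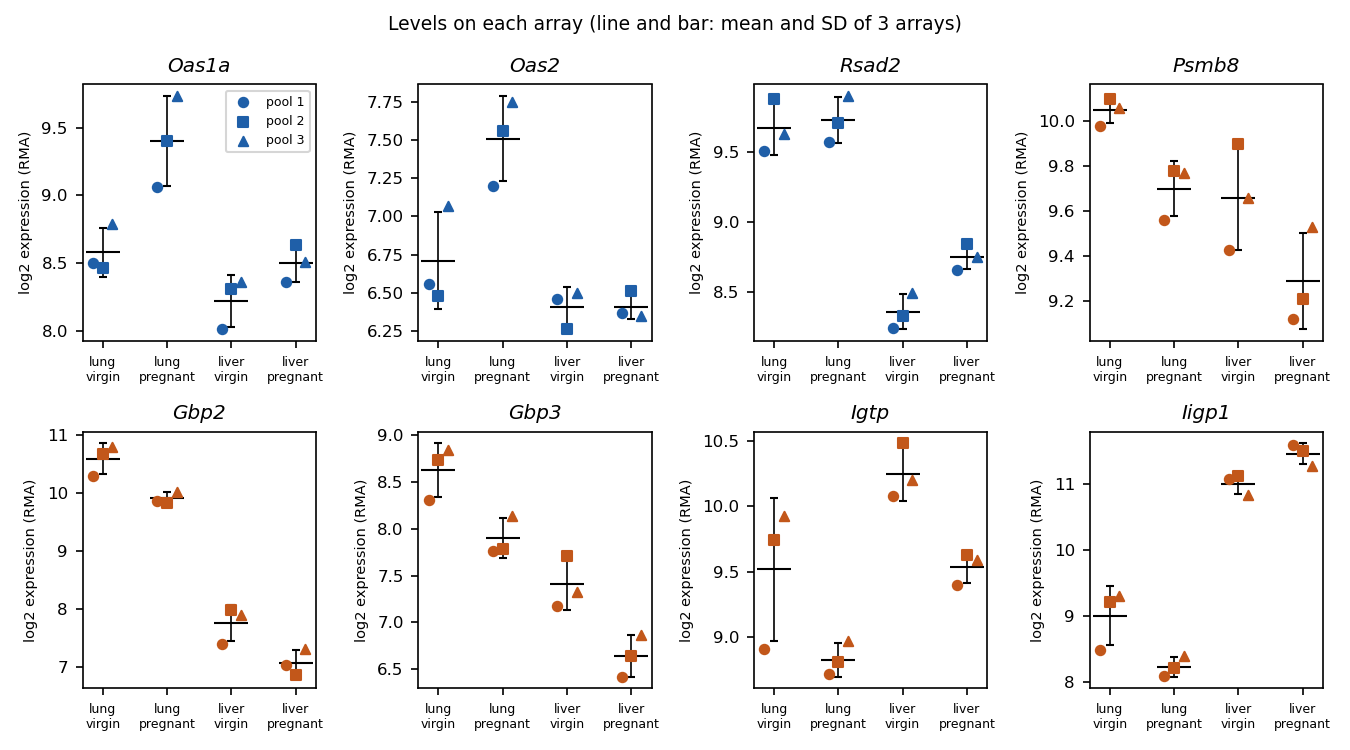
Log2 expression on each of the 12 arrays for the members that the comparisons turn on, by group, with marker shapes for pools 1, 2 and 3 and a line and bar for the mean and SD of 3 arrays. Gbp2, Gbp3 and Igtp were lower in pregnant than in virgin liver pools without overlap, and Iigp1 lay lower in pregnant lung and higher in pregnant liver.

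The pregnancy change was then compared between organs by the interaction term of the same fit. Of all genes 1221 passed (6.71%), 608 with a change more positive in lung (3.34%) and 613 with one more negative (3.37%). Among members 2 of 32 passed, a share near the background. Iigp1 was lower in pregnancy in lung (-0.76) and higher in liver (0.44), and the changes differed by -1.21 (SE 0.25, interval -1.75 to -0.66, adjusted p = 0.0102). Neither change passed within its organ, and the difference between them passed with any single array left out, at an adjusted p of at most 0.0321. The second Iigp1 probe set gave -1.33 in the fit of every probe set on its own (adjusted p = 0.0084). Oas2 differed by 0.80 between organs (SE 0.22, interval 0.32 to 1.28, adjusted p = 0.0488). In liver it lay at 6.46, 6.26 and 6.50 in virgin and 6.37, 6.51 and 6.35 in pregnant pools, so that the groups were interleaved, with a change of 0.00 (interval -0.34 to 0.34). This call passed in 2 of the 12 fits without 1 array, with an adjusted p of up to 0.125 in the others. In the fit of every probe set Oas2 did not pass between organs (adjusted p = 0.0627).

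Gbp2, Gbp3 and Igtp had like estimates in both organs. Their changes in lung minus liver were 0.01 (interval -0.50 to 0.52), 0.03 (-0.49 to 0.56) and 0.02 (-0.60 to 0.64), intervals that leave room for a difference nearly as large as the changes themselves. Xaf1 (0.49, adjusted p = 0.138) and Oas1a (0.54, adjusted p = 0.189) did not pass. The median difference was 0.15 for the type I induced genes and 0.01 for the gamma-induced genes, against 0.004 for all genes.

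Before pregnancy the organs already differed in most members. Of the 32, 17 were higher in virgin lung, 9 were higher in virgin liver and 6 did not pass, where 68.7% of all genes passed (34.3% higher in lung and 34.4% higher in liver). The median difference, lung minus liver, was 0.37 for type I induced and 0.39 for gamma-induced genes, against -0.072 for all genes. The 4 members most in favour of lung were Gbp2, Oasl2, Ifit2 and Rsad2.

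Gbp2 lay at 10.29, 10.68 and 10.80 in virgin lung and at 7.39, 7.97 and 7.90 in virgin liver, a 7.15-fold difference (2.84, adjusted p = 1.41e-09). Oasl2 lay at 7.66, 7.66 and 8.18 in lung and at 5.11, 5.37 and 5.89 in liver, a 5.19-fold difference (2.38, adjusted p = 6.33e-07). Ifit2 lay at 8.04, 8.14 and 8.20 in lung and at 6.26, 6.90 and 6.73 in liver, a 2.82-fold difference (adjusted p = 9.22e-07). Rsad2 was 2.49-fold higher in lung (adjusted p = 1.55e-07). No liver pool reached the level of any lung pool in these 4 genes. Xaf1, Gbp3, Ifit3 and Ifit1 followed, at differences of 1.31, 1.22, 1.22 and 0.95.

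Iigp1 had the largest difference in favour of liver, at 8.48, 9.21 and 9.30 in virgin lung and 11.07, 11.11 and 10.83 in virgin liver, a 4.02-fold difference (-2.01, adjusted p = 1.48e-07). Oasl1 lay at 5.10, 4.73 and 5.21 in lung and at 6.70, 6.52 and 7.32 in liver, a 3.56-fold difference (-1.83, adjusted p = 3.41e-06). Bst2, whose product tethers budding virus to the cell surface, lay at 9.20, 9.28 and 9.21 in lung and at 10.22, 10.34 and 10.27 in liver, a 2.06-fold difference (adjusted p = 4.14e-07). Irf7 was 1.99-fold higher in liver (adjusted p = 0.000422). The related genes Oasl2 and Oasl1 thus stood on opposite sides. Of the GTPase genes among the members, the guanylate-binding protein genes Gbp2 and Gbp3 were higher in lung. The immunity-related GTPase genes Iigp1, Igtp (-0.73) and Irgm1 (-0.46) were higher in liver. The families did not divide this way beyond the members. By limma, the non-members Gbp7 (1.52) and Ifi47, an immunity-related GTPase gene (0.49, adjusted p = 0.0077), were higher in lung. Gbp8 (-0.52, adjusted p = 0.0357) was higher in liver, and Gbp6 (-0.43) and Irgm2 (-0.18) did not pass. Oas1a, Oas2, Oas3, Mx1, Mx2 and Eif2ak2 did not pass. Tap1 was higher in lung by 0.37 (adjusted p = 0.03) on the probe set used, but the mean of its probe sets, which include dim ones, gave -0.14 (adjusted p = 0.172).

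**Figure D3:**
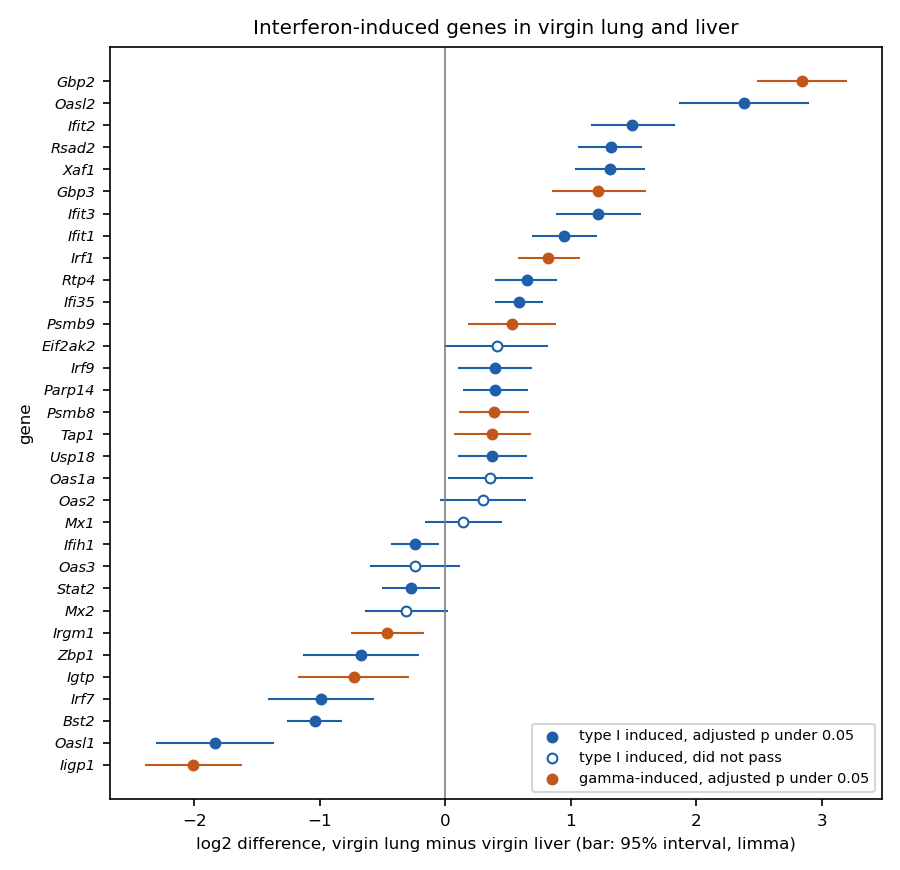
Difference in log2 expression between virgin lung and virgin liver for the 32 measured genes, sorted, with 95% intervals from limma, type I induced genes in blue and gamma-induced genes in orange. Gbp2 and Oasl2 stand furthest to the lung side and Iigp1 and Oasl1 furthest to the liver side, and open points mark the 6 genes that did not pass.

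The members varied together from pool to pool. After subtraction of group means, the mean pairwise correlation over the 6 lung arrays was 0.609 among type I induced genes and 0.704 among gamma-induced genes, against 0.00207 among all genes. In liver it was 0.244 and 0.53, against 0.00548. These correlations rest on 6 arrays an organ, and the genes of a pair share each array's mice, labelling and scan. The mean over all genes averages pairs of either sign, and no other set of related genes was set beside the members. Pool 1 was the low pool for type I induced genes in every group, with 2, 2, 3 and 3 of the 23 genes above their group mean in lung of virgin and of pregnant mice and in liver of virgin and of pregnant mice. Pool 3 was high in each, with 21, 23, 17 and 18 of the 23 above the mean.

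The mean level of the 23 type I induced genes accordingly ranged over 7.41 to 7.66 in virgin lung, 7.57 to 7.89 in pregnant lung, 7.07 to 7.30 in virgin liver and 7.18 to 7.39 in pregnant liver. Pregnant and virgin ranges overlapped in both organs. The mean level of the 9 gamma-induced genes was 8.89 to 9.36 in virgin lung against 8.62 to 8.81 in pregnant lung, without overlap, and 8.68 to 9.06 in virgin liver against 8.46 to 8.72 in pregnant liver, with overlap. The overlap was that of pregnant pool 3 (8.72) with virgin pool 1 (8.68), and in pools 1 and 2 the levels were 8.68 and 9.06 against 8.46 and 8.57. Pregnant pool 3 and virgin pool 3 (8.85) are the liver arrays without spike-in signal. The part of the missing signal in these levels was not tested. In virgin lung pool 1, 0 of the 9 genes lay above the group mean, and their median deviation was -0.30. The signal of the 3′ Gapdh control probe set over the 5′ one, a sign of RNA or cDNA integrity, was 0.24 on that array and 0.57 and 0.64 on virgin lung pools 2 and 3, against 0.38, 0.36 and 0.59 on pregnant lung pools 1 to 3, as log2 differences. Its part in the lung changes was not tested.

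**Figure D4:**
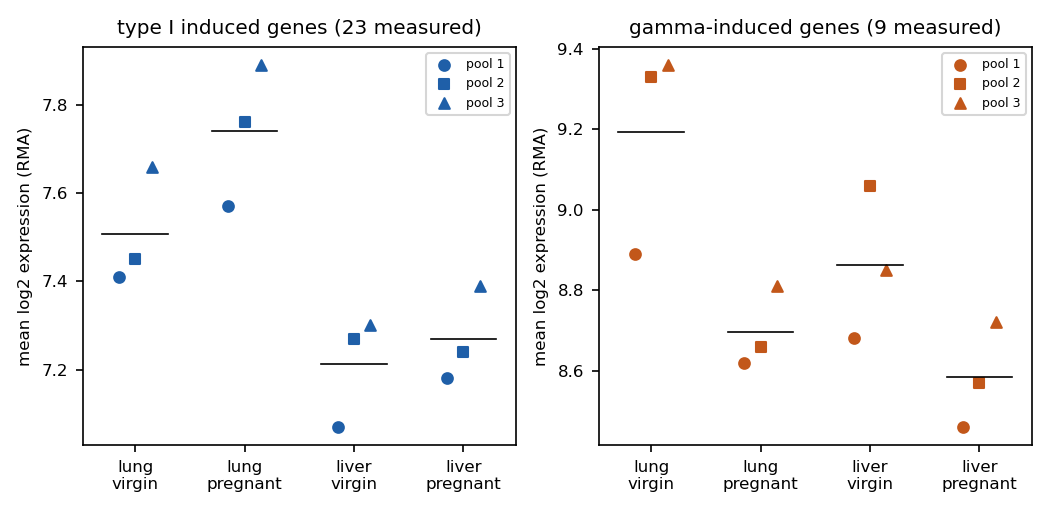
Mean log2 expression of the 23 type I induced genes (left) and the 9 gamma-induced genes (right) on each array, by group, with marker shapes for pools 1, 2 and 3 and a line for the mean of 3 arrays. Pool 1 is the lowest point of each group on the left, and on the right the lung groups do not overlap while the liver groups do.

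Other genes of the interferon pathway were read from separate lists. Of 35 ligands, receptors, kinases and regulators, 33 were measured, 0 passed in lung by limma, and in liver 0 rose and 2 fell, no larger a share than the 7.62% of all genes that fell there. The ligand genes Ifng, Ifnb1 and Ifna4 had group means of 2.63 to 2.81, 3.70 to 4.13 and 2.90 to 3.28, all below the median of all probe sets. The receptor chains Ifnar1, Ifnar2, Ifngr1 and Ifngr2 differed between pregnant and virgin by -0.16 to 0.31 in lung and by 0.06 to 0.17 in liver. None passed in either organ. Nlrc5, the activator of class I antigen presentation genes, differed by -0.50 in lung (adjusted p = 0.278) and by -0.30 in liver (adjusted p = 0.30). Socs3, a feedback inhibitor of cytokine receptors, differed by 0.51 in lung (adjusted p = 0.12).

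The 2 that fell in liver encode cytokines that promote interferon gamma production by natural killer cells. Il18 lay at 8.96, 9.17 and 8.99 in virgin and at 8.12, 8.14 and 8.38 in pregnant liver, a 1.77-fold fall (-0.82, SE 0.11, adjusted p = 0.000158). Il15 lay at 5.46, 5.41 and 5.64 in virgin and at 4.84, 4.32 and 5.03 in pregnant liver (-0.77, SE 0.16, adjusted p = 0.00417). In both genes the groups did not overlap, and both passed with any single array left out. Within pools 1 and 2 the differences were -0.93 for Il18 and -0.86 for Il15, and within pool 3 -0.61 for each. In lung they differed by 0.08 and 0.02.

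Of 50 further interferon-induced genes 43 were measured, with 0 calls in lung and a median change of 0 there. In liver 1 rose and 7 fell, with a median of -0.18, where 6.02% and 7.62% of all genes did so. Cxcl11, a chemokine for cells bearing Cxcr3, rose 1.93-fold, from 6.91, 6.69 and 6.96 to 7.79, 7.72 and 7.90 (0.95, SE 0.14, adjusted p = 0.000357). Its relatives Cxcl9 and Cxcl10 differed by -0.20 and -0.06 in liver and did not pass. Those that fell included Ifi47, another immunity-related GTPase gene (-0.64, adjusted p = 0.00828), Psmb10, the third immunoproteasome subunit (-0.43, adjusted p = 0.0195), the partners Parp9 (-0.44, adjusted p = 0.00506) and Dtx3l (-0.42, adjusted p = 0.0135), Samd9l (-0.43, adjusted p = 0.0211) and the antibody receptor gene Trim21 (-0.31, adjusted p = 0.0323). The seventh, Ido1 (-0.49, adjusted p = 0.0378), was named after its value had been seen. With each array left out in turn, Cxcl11, Ifi47 and Parp9 passed in 12 of 12 fits, Dtx3l in 11, Psmb10 in 9, Samd9l in 8, Trim21 in 7 and Ido1 in 6. The highest adjusted p was 0.0577 for Dtx3l, 0.0858 for Psmb10, 0.0854 for Samd9l, 0.111 for Trim21 and 0.118 for Ido1.

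Within pools 1 and 2 and within pool 3 of liver, Cxcl11 differed by 0.95 and 0.94, Ifi47 by -0.68 and -0.57, Parp9 by -0.45 and -0.44, and Dtx3l by -0.44 and -0.38. The others differed more between pools, with -0.55 and -0.20 for Psmb10, -0.53 and -0.23 for Samd9l, -0.39 and -0.14 for Trim21, and -0.34 and -0.79 for Ido1. All of these but Ido1 (adjusted p = 0.234) passed with both pool 3 liver arrays left out. In lung Ifi47 differed by -0.58 (adjusted p = 0.103) and Ifi27l2a by 0.83 (adjusted p = 0.0791), and neither passed.

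Markers of natural killer cells, a source of interferon gamma, lay lower in pregnancy in both organs with few calls. In lung the differences of all 8 measured of 9 listed were below 0, with a median of -0.24 and 0 passing by limma. The groups were apart in 12.5% of these genes, against 18.4% of all genes. Their mean level was 6.57 to 6.73 in virgin and 6.21 to 6.65 in pregnant pools. In liver 7 of 8 were below 0, with a median of -0.26, and Gzmb fell (-0.70, adjusted p = 0.000961). The mean level there was 5.01 to 5.34 in virgin and 4.73 to 5.04 in pregnant pools. Neutrophil markers lay higher, with a median of 0.86 over the 6 measured of 8 in lung, where S100a9 rose, and 0.79 in liver, where 3 rose. Their mean level was 7.90 to 8.11 in virgin and 8.40 to 9.41 in pregnant lung, and 5.62 to 5.83 in virgin and 6.43 to 6.73 in pregnant liver. Of 6 plasmacytoid dendritic cell markers none passed in lung and Ly6d rose in liver, and of 9 resident macrophage markers Chil3 rose and Timd4 fell in liver. Of 4 measured monocyte markers none passed in either organ, and of 5 endothelial markers Kdr fell in liver. Over all genes 0.594% passed in lung and 13.6% in liver, so a single call in a liver list is near the background. The part of these cells in the changes of the interferon-induced genes was not tested.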

How the data were processed

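RNA pooled from 2 mice was hybridised to each of 12 Affymetrix arrays, 3 for each organ (lung or liver) and state (virgin or pregnant). The deposited values are log2 expression per probe set, made by the authors with RMA in the affy package per the submitters' processing notes; versions, and whether all arrays were normalized together, are not given in the sources used here. The values are those of arrays, so the number of arrays limits their precision.

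Of 45101 probe sets, 64 controls were left out, and 34945 of the other 45037 carried a single symbol in the platform annotation, 932 several and 9160 none. The probe set with the highest mean over 12 arrays stood for each of 18193 genes. No filter on low values was used. A model of 4 group means was fitted with limma 3.58.1 in R 4.3.3 (lmFit, contrasts.fit, eBayes, 8 residual degrees of freedom) and p-values were adjusted by the Benjamini-Hochberg method over all genes, with calls at an adjusted p under 0.05. The procedure was tested on simulated data in which each gene varied on its own with normal noise and few genes changed. It recovered 47.8% of log2 changes of 0.5 in lung and 43.3% in liver, and 92.5% and 95.5% of changes of 1. False calls made up 3.61% of the calls in lung and 7.02% in liver. The members varied together and far more genes were called in liver, so these rates hold for the simulated setting only. Promoters and motif positions come from RefSeq tables of build GRCm38.p6.

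The members and the other gene lists were chosen with earlier results of these data known. Values on each array are given for members called in an organ or between organs, filled up to 6 by smallest p in each organ, and for the virgin organs for the members with the largest differences each way. Of the other pathway genes, those called or with the smallest p were named. Alternatives were other choices of probe set, normalization, filter, variance model, blocks and arrays, and each array left out in turn. Over all genes, same-numbered virgin and pregnant lung arrays deviated from their group means with correlations of -0.00631, 0.0155 and 0.096. Liver arrays did so with 0.108, -0.11 and 0.0918. Differently numbered arrays gave -0.103 to 0.0906 in lung and -0.197 to 0.11 in liver, so the numbers were not taken as pairs. The type I induced genes did follow the pool number, and fits with it as a block are given below.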

Additional observations from a re-analysis of the deposited data

Results flagged for a closer look

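For 5 genes the pregnancy change differed between lung and liver by the interaction term of limma's fit at an adjusted p under 0.05. Iigp1 had a change in lung minus that in liver of -1.21 (adjusted p = 0.0102) and Oas2 one of 0.80 (adjusted p = 0.0488). Among the other pathway genes the difference was 0.90 for Il18 (adjusted p = 0.00259), 0.79 for Il15 (adjusted p = 0.0469) and -0.84 for Cxcl11 (adjusted p = 0.0181). With each array left out in turn, Iigp1 and Il18 passed in 12 of 12 fits, Cxcl11 in 11, Oas2 in 2 and Il15 in 1. Single outlying arrays were not tested for in groups of 3.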

How the results depend on the processing

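At an adjusted p under 0.01, 0 of 32 members were called in lung, 1 in liver and 0 between organs, and 22, 1321 and 564 of all genes. Lung member calls (2 as reported) numbered 5 with array weights, 1 with the 2 liver arrays that lack spike-in signal as a block, and 0 with both liver pool 3 arrays left out or only lung arrays fitted. Liver calls (4) numbered 2 with array weights. Calls between organs (2) numbered 1 with the spike-in block, the mean of all probe sets, quantile normalization or suffixed probe sets left out. Of all genes, lung calls (108) numbered 313 with array weights and 207 with a variance trend and robust moderation, and liver calls (2482) 1557 with only liver arrays fitted. With the pool number as a replicate block, 4 members were called in lung, as Gbp3 (adjusted p = 0.0315) and Gbp2 (0.0485) fell beside the rise of Oas1a and Oas2, 5 in liver and 2 between organs, and 111, 2391 and 1102 of all genes.

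With each array left out in turn, member calls ranged from 0 to 4 in lung, 1 to 5 in liver, 1 to 2 between organs and 21 to 27 between virgin organs. Calls over all genes in lung ranged from 26 to 112. The causes were not tested. The virgin organ difference of Tap1 turned to -0.14 with the mean of its probe sets. The median change of gamma-induced genes was -0.63 to -0.37 in lung and -0.50 to -0.18 in liver over all alternatives, and that of type I induced genes 0.11 to 0.28 and -0.03 to 0.11. The median organ difference of gamma-induced genes was -0.04 with suffixed probe sets left out. The difference between organs could not be fitted with the arrays of 1 organ. With 3 arrays a group, small changes of single genes cannot be told from the spread between pools.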
